A study of Rattus norvegicus with 8 samples.

Results

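Transcripts of 10 enzymes that break down fatty acids in mitochondria were followed in the thigh muscle of 8 rats. The genes are Cpt1b, Cpt2, Acadvl, Acadl, Acadm, Hadha, Hadhb, Acaa2, Eci1 and Etfdh, chosen by the platform's gene symbol. Each was covered by 1 probe, so they make up 10 of the 22523 probes on the array and 10 of its 13337 named genes. The first group comprised 4 Wistar Han rats whose diet held a sulfonyl isoxazoline, SI compound 177, at 150 ppm for 28 days. The second comprised 4 control Wistar Han rats on standard laboratory chow, sampled at the same 28 days. No transgene or other agent is named for either group, and the labels used here give no age or sex. Each rat gave 1 Illumina bead array, hybridised with cRNA from ground whole muscle. In bulk muscle, fewer cells of a type and less RNA per cell cannot be told apart. The series title places the study in work on mitochondrial toxicity of xenobiotics in muscle.

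Muscle burns long-chain fatty acids in the mitochondrial matrix. An acyl group is carried across the inner membrane as its carnitine ester, then shortened by repeated rounds of dehydrogenation, hydration, a second dehydrogenation and thiolytic cleavage. Electrons of the first dehydrogenation reach the respiratory chain through the electron transfer flavoprotein and its ubiquinone oxidoreductase. Slow and mixed oxidative fibres rely on the pathway more than fast glycolytic ones, and transcription of many of its genes responds to PPAR receptors bound by fatty acids.

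The upstream sequences of 3 loci are shown because they belong to the pair of genes whose levels were least alike across the rats and to the pair that were most alike. Hadha and Hadhb, which encode the 2 subunits of the mitochondrial trifunctional protein, lie head to head, and the 243 bases between their outermost annotated starts (GRCr8, chr6:31907558-31907800, given on the + strand, towards Hadha) serve both. Acadm and Etfdh lie on the same chromosome, and for them the 250 bases before the start are given on the - strand (chr2:245542865-245543114 and chr2:167060759-167061008). All are RefSeq sequences, 5′ to 3′, with matches to the motifs searched in capitals.
Hadha and Hadhb: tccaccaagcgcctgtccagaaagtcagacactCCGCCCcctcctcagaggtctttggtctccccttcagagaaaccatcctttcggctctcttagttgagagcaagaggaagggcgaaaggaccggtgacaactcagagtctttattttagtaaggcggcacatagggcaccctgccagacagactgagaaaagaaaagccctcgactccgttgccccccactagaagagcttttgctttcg
Acadm: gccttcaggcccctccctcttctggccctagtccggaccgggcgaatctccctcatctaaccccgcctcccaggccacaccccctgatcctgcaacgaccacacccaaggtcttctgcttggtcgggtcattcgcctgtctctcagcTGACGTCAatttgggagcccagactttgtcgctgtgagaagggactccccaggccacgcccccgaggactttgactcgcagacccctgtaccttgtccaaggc
Etfdh: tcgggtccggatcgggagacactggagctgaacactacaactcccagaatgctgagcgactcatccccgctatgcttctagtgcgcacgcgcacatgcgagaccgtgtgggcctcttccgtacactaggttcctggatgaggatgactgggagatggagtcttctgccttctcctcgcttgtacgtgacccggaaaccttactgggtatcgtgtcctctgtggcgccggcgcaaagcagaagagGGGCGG

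The capitals mark a GC box (GGGCGG, read as CCGCCC on the other strand) upstream of Hadha and of Etfdh, and a cAMP response element (TGACGTCA) 103 bases upstream of the Acadm start. RefSeq windows of 250 bases before and 50 after the start were found for 7 of the 10 genes, and Cpt1b, Acadl and Acaa2 had none in the table. Both strands were searched. The GC box was in 6 of the 7 windows and in 33.1% of all 33469 rat promoter windows; that of Acadm lies in the part of the window not printed. The nuclear receptor half-site AGGTCA was in 3 windows (Acadvl, Hadhb and Eci1) and in 16.2% of all, and the cAMP response element in 1 (Acadm) and in 1.83%. A CCAAT box was in 1 window (Hadha) and in 37.5% of all. The PPAR direct repeat (half-sites 1 base apart) and the ERR element TCAAGGTCA, which both contain the half-site, were in 0 of 7 windows and in 0.0538% and 0.433% of all. These matches describe letters in short windows and were not tied to any measured binding.

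All 10 probes were detected on all 8 arrays, with a detection p of 0, and all passed the filter on dim probes, which left 10212 probes for the test. Levels are normalised log2 intensities, and each difference is compound 177 minus control on the log2 scale, from 4 rats in either group. With compound 177, 9 of the 10 genes averaged above control, where 53.4% of all tested probes did. The differences were small: their median was 0.18, against 0.01 over all tested probes, and the highest, that of Acaa2, was a 1.18-fold difference. For 8 genes the difference was at least 0.10, a size that 29.6% of all tested probes reached upward, and for 5 it was at least 0.20, which 12.9% reached. None of the 10 passed the test, each having a limma adjusted p = 0.9999, and 0 had an unadjusted p below 0.05. Of all probes, 0 (0%) passed limma in either direction after adjustment, at a threshold of 0.05. Without adjustment 396 did (3.88%; 2.26% higher and 1.62% lower), or 657 with the replicate number as a block. For 0 of the 10 genes were the groups separate, where 1.70% of all probes lay wholly above control and 0.705% wholly below. The 10 genes varied together across the rats, so these counts are not counts of independent genes.

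Array quality and tissue markers bear on all of these values. The 8 arrays had medians of 97.5 to 124.7 intensity units, and 9261 to 10620 probes were detected. Fast-fibre markers such as Actn3 and Tnnc2 were detected on every array (8 of 11 were measured), whereas the mean of 11 slow-fibre markers varied widely between rats, from -1.18 to 0.80 around its own mean with compound 177 and from -0.74 to 1.10 in control. On the 2 arrays numbered 2, transcripts of liver were present: Alb, encoding serum albumin, was by 1 of its 2 probes at 9.89 in the compound 177 rat and 12.54 in the control rat, and at 5.26 to 6.78 on the other 6 arrays. Liver is itself rich in fatty acid oxidation enzymes. Without both arrays numbered 2 the median difference of the 10 genes was 0.18, and 9 of them were above control, an alternative chosen after seeing the data.

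**Figure D1:**
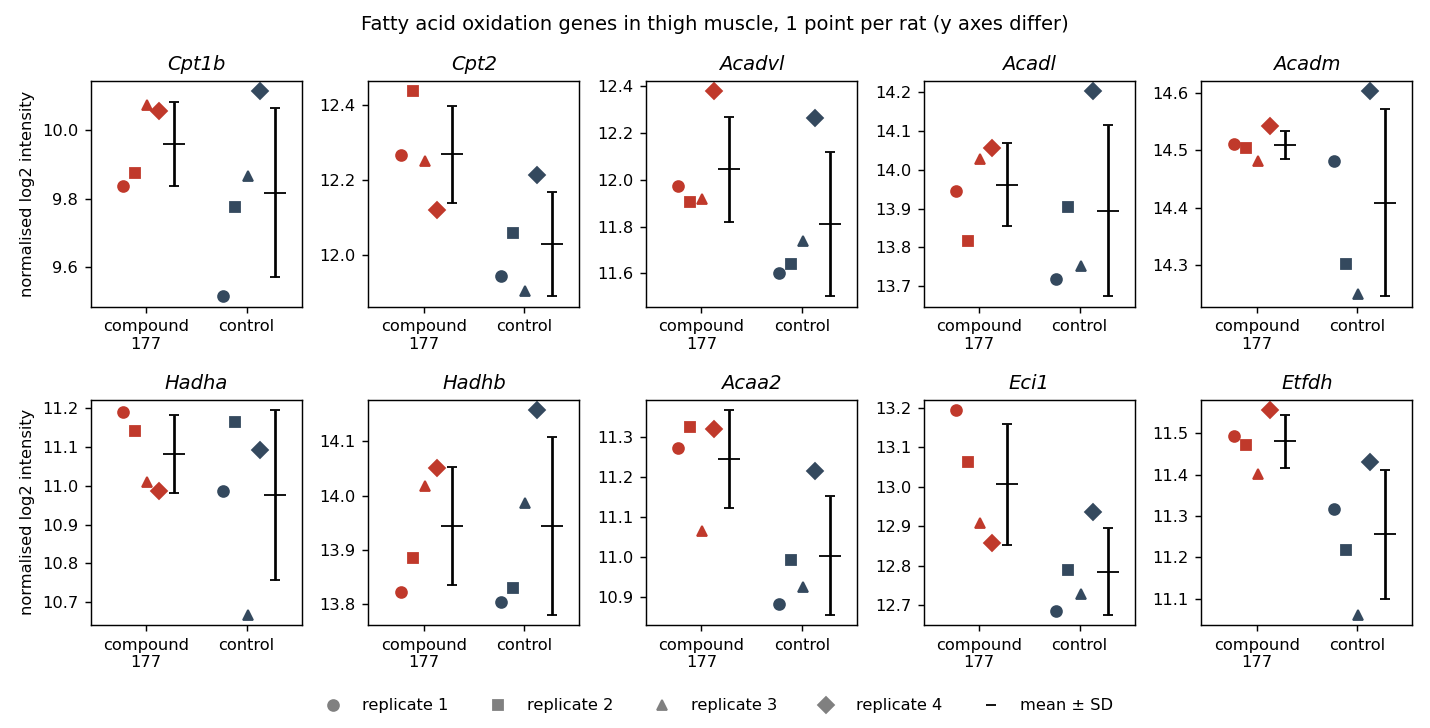
Normalised log2 intensity of the 10 genes, 1 point per rat, with the 4 rats fed compound 177 on the left of each panel and the 4 control rats on the right; point shapes give the replicate number, bars the mean ± SD, and y axes differ between panels. The groups overlap in all 10 panels, and control replicate 4 is the highest control rat in 9 of them, Hadha being the exception.

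The carnitine step was described by Cpt1b and Cpt2. Cpt1b (chromosome 7, 122370974 to 122380473, GRCr8) encodes the muscle form of carnitine palmitoyltransferase 1, the outer membrane enzyme that commits long-chain acyl-CoA to oxidation. Its level was 9.84, 9.87, 10.07 and 10.06 in the 4 compound 177 rats, against 9.52, 9.78, 9.86 and 10.11 in the 4 control rats. The treated values lay within the range of the controls, and the difference was 0.14 (SE 0.14, 95% confidence interval -0.18 to 0.46). It was 0.04 without control replicate 1 and 0.24 without control replicate 4. Cpt2 (chromosome 5, 127893450 to 127911347) encodes the inner membrane enzyme that hands the acyl group back to coenzyme A. It was at 12.27, 12.44, 12.25 and 12.12 in compound 177 rats and at 11.94, 12.06, 11.90 and 12.21 in control rats. Here 3 of 4 treated rats were above every control rat, and the difference was 0.24 (SE 0.12, interval -0.03 to 0.51), a 1.18-fold higher mean. Within normalization sets, which are replicates 1 and 2 and replicates 3 and 4 as the authors' normalized table groups them, Cpt2 differed by 0.35 in set 1 and 0.13 in set 2, and Cpt1b by 0.21 and 0.08.

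Acadvl, Acadl and Acadm encode the dehydrogenases of the first step for very long, long and medium chains. Acadvl (chromosome 10, 55231558 to 55236786), the membrane-bound enzyme for the longest substrates, was at 11.97, 11.91, 11.92 and 12.38 in compound 177 rats, against 11.60, 11.64, 11.74 and 12.26 in control rats. In each group 1 rat, replicate 4, stood well above the other 3. The difference was 0.23, with the widest error of the 10 genes (SE 0.18, interval -0.16 to 0.63), and it was 0.12 without compound 177 replicate 4 and 0.38 without control replicate 4. Acadl (chromosome 9, 75783689 to 75822077) had 13.95, 13.82, 14.03 and 14.06 in compound 177 rats and 13.72, 13.91, 13.75 and 14.20 in control rats. The treated rats again lay inside the control range, with a difference of 0.07 (SE 0.13), which was 0.01 without control replicate 1 and 0.17 without control replicate 4. Acadm (chromosome 2, 245518693 to 245542864), whose deficiency in humans is a common disorder of fatty acid oxidation, had 14.51, 14.50, 14.48 and 14.54 in compound 177 rats, against 14.48, 14.30, 14.25 and 14.60 in control rats. The treated rats were nearly alike, at 14.51 ± 0.02 (SD, n = 4), while the control rats spread over 14.41 ± 0.16 (SD, n = 4), and the difference was 0.10 (SE 0.11, interval -0.15 to 0.35). It was 0.05 without control replicate 3 and 0.16 without control replicate 4.

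The trifunctional protein carries out the next 3 reactions on long chains at the inner membrane, with hydratase and hydroxyacyl dehydrogenase activity in the Hadha subunit and thiolase activity in the Hadhb subunit. Hadha (chromosome 6, 31907801 to 31947434) was at 11.19, 11.14, 11.01 and 10.99 in compound 177 rats, against 10.99, 11.16, 10.67 and 11.09 in control rats. Control replicate 3 was the lowest of the 8 rats, and the difference of 0.11 (SE 0.13, interval -0.19 to 0.40) was 0.002 without that rat and 0.17 without control replicate 2. Hadhb (chromosome 6, 31873404 to 31907557) was at 13.82, 13.89, 14.02 and 14.05 in compound 177 rats and at 13.80, 13.83, 13.99 and 14.16 in control rats. It was the 1 gene of the 10 that did not average above control: its means were 13.94 ± 0.11 and 13.94 ± 0.16 (SD, n = 4), and the interval of the difference ran from -0.27 to 0.27. Its sign depended on the setting, being 0.10 with median scaling. In the treated rats Hadha was higher in replicates 1 and 2 and Hadhb in replicates 3 and 4, so these 2 genes, which share the upstream stretch printed above, ran in opposite order.

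Acaa2 and Eci1 act late in the spiral or on its side branch. Acaa2 (chromosome 18, 70620310 to 70648417) encodes the matrix 3-ketoacyl-CoA thiolase. It was at 11.27, 11.32, 11.06 and 11.32 in compound 177 rats, against 10.88, 10.99, 10.93 and 11.22 in control rats. Here 3 of 4 treated rats were above every control rat, with a difference of 0.24 (SE 0.12, interval -0.03 to 0.51). Eci1 (chromosome 10, 13961250 to 13974595) encodes the enoyl-CoA isomerase that moves the double bond of unsaturated fatty acids into the position that the spiral can use. It was at 13.20, 13.06, 12.91 and 12.86 in compound 177 rats and at 12.68, 12.79, 12.73 and 12.94 in control rats, so that 2 of 4 treated rats were above every control rat. Its difference was 0.22 (SE 0.12, interval -0.04 to 0.49), with 0.39 in set 1 and 0.05 in set 2. For Acaa2 the values in these sets were 0.36 and 0.12.

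Etfdh (chromosome 2, 167038707 to 167060758) encodes electron transfer flavoprotein ubiquinone oxidoreductase, through which all acyl-CoA dehydrogenases feed the respiratory chain. It was at 11.49, 11.47, 11.40 and 11.56 in compound 177 rats, against 11.32, 11.22, 11.06 and 11.43 in control rats. In 3 of 4 treated rats it was above every control rat, and compound 177 replicate 3 lay just under control replicate 4. The difference was 0.22 (SE 0.11, interval -0.03 to 0.48), and it was nearly equal between the sets, at 0.22 in set 1 and 0.23 in set 2.

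**Figure D2:**
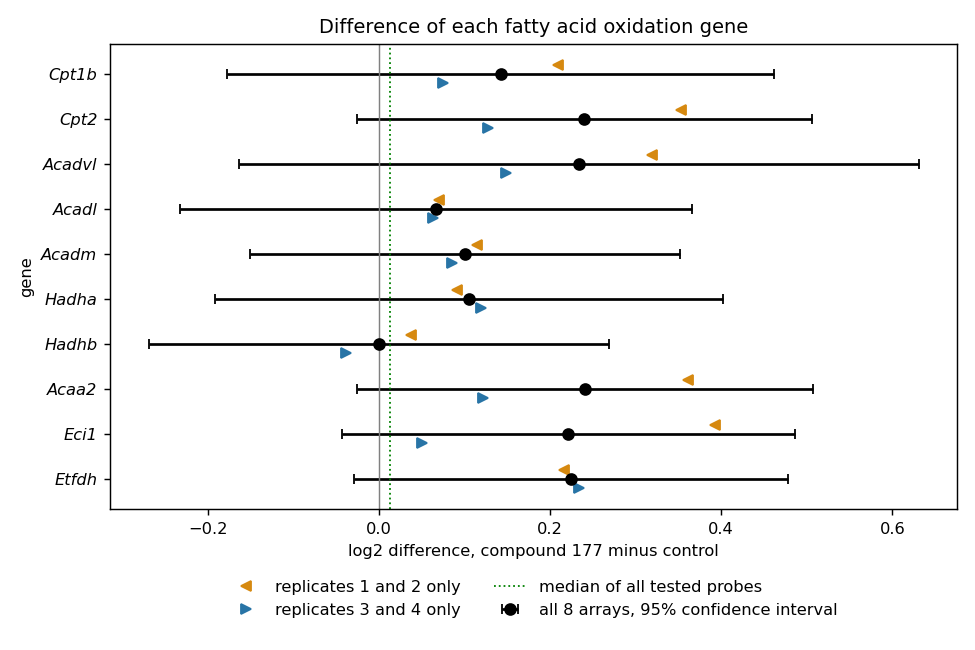
Difference of each gene (compound 177 minus control, log2 scale) with its 95% confidence interval over all 8 arrays, and the differences within replicates 1 and 2 and within replicates 3 and 4; the dotted line is the median of all tested probes, 0.01. All 10 intervals include 0, and 8 of the 10 genes differ more in replicates 1 and 2 than in replicates 3 and 4.

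Set against the spread between rats, the intervals limit how large a shift these arrays allow. For 9 of the 10 genes the 95% interval lay within 1.5-fold in both directions, which held for 69.5% of all tested probes. Acadvl was the exception, with an upper bound of 1.55-fold. With the replicate number as a block its upper bound was 1.39-fold, and all 10 intervals lay within 1.5-fold. No label states that the replicate numbers pair the rats. Between same-numbered rats Acadvl, Etfdh and Acaa2 were higher with compound 177 in 4 of 4 pairs, as were 9.30% of all tested probes. For 9 genes the difference was above 0 in both normalization sets, where 30.1% of all tested probes were. The median of the 10 genes was 0.21 in set 1 and 0.10 in set 2. A test of the difference between the sets called 0 of the 10 genes (limma adjusted p = 0.9996 for each) and 0 probes of all. With so few rats per group in each set it could hardly call a gene, so it does not show that the sets agree.

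The rats differed in how the 10 genes stood together. Averaged over the 10 genes, each centred on its own mean, the 4 compound 177 rats lay at 0.08, 0.07, 0.04 and 0.12, and the control rats at -0.18, -0.10, -0.18 and 0.15. Control replicate 4 was therefore the highest of the 8 rats, with all 10 genes above their mean, while in each of the other 3 control rats 1 gene was. Without control replicate 4 the median difference was 0.25 and 10 of 10 genes were above control. Cpt2, Acadvl, Acaa2 and Etfdh then had a limma unadjusted p below 0.05, as did 478 of all 9913 tested probes, but the limma adjusted p of each was 0.94. Leaving out the highest control rat lowers the control means, so this run is no separate support. The slow-fibre mean was also highest in control replicate 4, at 1.10. In the 4 compound 177 rats the slow-fibre mean was 0.80, -0.83, -1.18 and -0.70, and in the other 3 control rats -0.74, 0.81 and 0.73. Both means were above 0 in compound 177 replicate 1 and control replicate 4 and both below 0 in control replicate 1. In the other 5 rats they lay on opposite sides of 0. Each mean was centred over all 8 rats, so differences between the groups enter these signs. Within groups, both means were highest among controls in replicate 4 and lowest among compound 177 rats in replicate 3. Control replicates 1 and 3 were alike for the 10 genes, at -0.18, but not in slow-fibre mean, at -0.74 and 0.73. Among compound 177 rats the 10 genes were highest in replicate 4 and the slow-fibre mean in replicate 1. Without both arrays numbered 1, on which the slow-fibre markers ran against the rest of their group, the median difference was 0.13, also an alternative chosen after seeing the data. The part of fibre type in the differences was not tested.

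**Figure D3:**
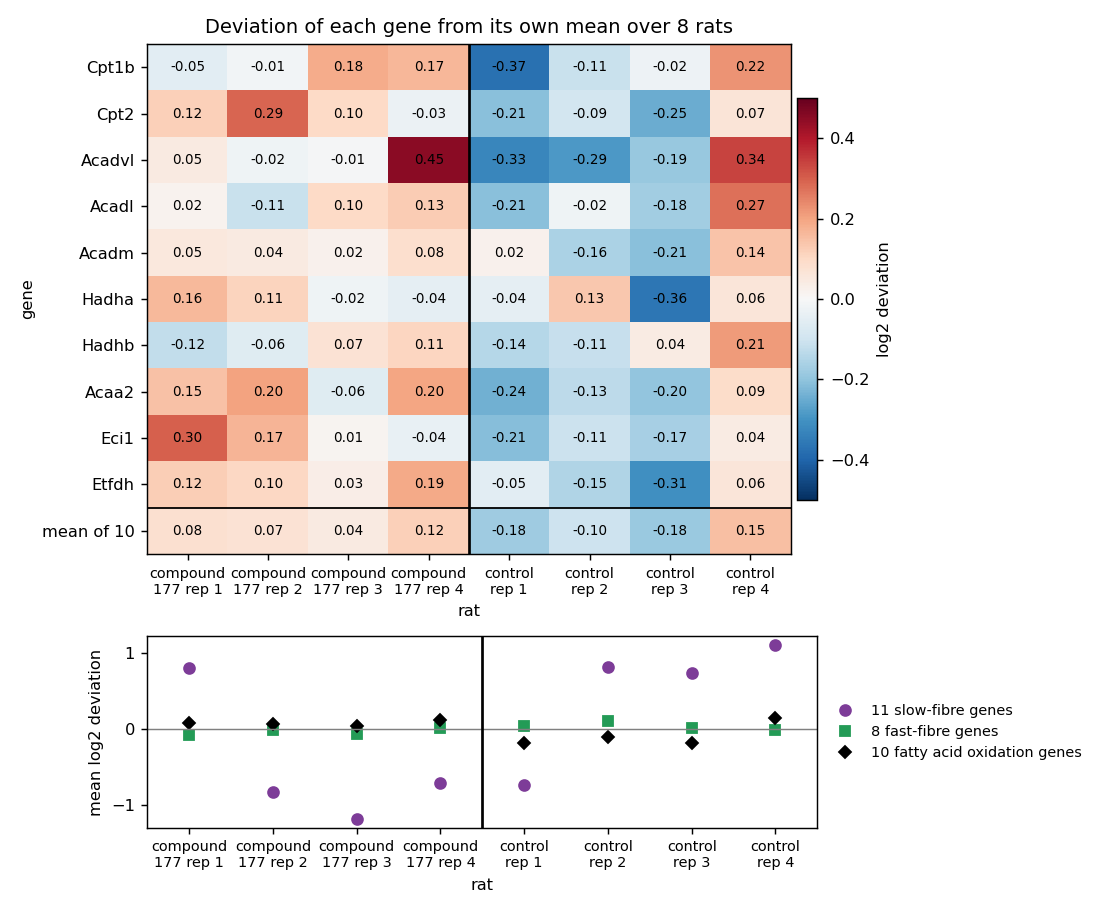
Upper panel, log2 deviation of each gene from its own mean over the 8 rats (columns; compound 177 left of the line, control right of it), with the mean of the 10 genes in the last line; lower panel, the same mean beside those of 11 slow-fibre and 8 fast-fibre markers. The 4 treated rats lie between 0.04 and 0.12 and the control rats between -0.18 and 0.15, and the slow-fibre mean spans -1.18 to 1.10.

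Control rats also spread more than treated ones. The SD over the 4 rats was lower with compound 177 than in control for 9 of the 10 genes, Eci1 being the exception, where 44.5% of all tested probes had the lower SD with compound 177. The mean of the 10 genes had an SD of 0.03 in compound 177 rats and 0.16 in control rats (n = 4 each), and the control value rests largely on replicate 4. No test was made of this difference in spread.

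Between genes, levels ran mostly in parallel. Pearson's r between pairs over the 8 rats ranged from -0.29 (Hadha with Hadhb) to 0.89 (Acadm with Etfdh), with a median of 0.57 over 45 pairs, of which 43 were above 0. With the group means removed it ranged from -0.31 (again Hadha with Hadhb) to 0.93 (Cpt1b with Hadhb), with a median of 0.44 and 42 pairs above 0. All pairs share the same rats, arrays and normalization, so these values only describe this set of arrays. The pair least alike is thus the one whose starts lie 243 bases apart. Among 7289 other named genes, the 5 whose profiles over the 8 rats were most like the mean of the 10 were Sdhb (r = 0.98), Supv3l1 (0.96), Mettl14 (0.94), Ninj2 (0.94) and Slc25a35 (0.93). Sdhb encodes the iron-sulfur subunit of succinate dehydrogenase, and was at 13.81, 13.75, 13.71 and 13.82 in compound 177 rats, against 13.48, 13.56, 13.44 and 13.95 in control rats. Control replicate 4 was highest and the other controls were below all treated rats. These 5 differed by 0.17, 0.27, 0.09, 0.13 and 0.21, with a limma adjusted p = 0.9999 each. They were picked for likeness to a mean that is itself higher with compound 177, so their direction is no separate support. With the group means removed their r was 0.99, 0.93, 0.98, 0.96 and 0.90. Ninj2 was dim, at a mean of 5.69 with compound 177 and 5.55 in control.

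The neighbouring steps of the pathway were described by lists, in which 0 genes passed the test in either direction. Of all tested probes 53.4% averaged above control. Genes of a list come from the same rats, so list counts are not counts of independent genes. For carnitine transport, 3 of 4 measured genes were above control (median 0.21). Slc25a20, the inner membrane carrier that exchanges acylcarnitine for carnitine, was at 9.88, 10.07, 9.60 and 9.51 in compound 177 rats, against 9.44, 9.61, 8.99 and 9.44 in control rats, a difference of 0.39 (SE 0.17). Slc22a5, the plasma membrane carnitine transporter, differed by 0.27 (SE 0.14). Cpt1a, the liver-type isoform of the same first step as Cpt1b, went the other way, at 7.70 ± 0.25 with compound 177 and 7.91 ± 0.18 in control (SD, n = 4). The difference was -0.21 (SE 0.15), or -0.09 without compound 177 replicate 2. Of the acyl-CoA synthetases, which activate fatty acids, 4 of 5 were above control (median 0.06), with Acsl6 at 0.39 (SE 0.25) and Acsl4 at 0.24 (SE 0.23).

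In a list of other enzymes, mostly of the mitochondrial spiral and its branches, 15 of 18 measured genes averaged above control (median 0.15), where 53.4% of all tested probes did. The list also holds enzymes of amino acid breakdown, such as Ivd, Gcdh and Pccb, and the cytosolic enzyme Echdc1. Acad11, an acyl-CoA dehydrogenase family member, was the 1 gene of these 18 whose groups were separate, where 1.70% of all probes lay wholly above control: 10.67, 10.40, 10.29 and 10.33 in compound 177 rats, against 10.18, 10.19, 10.27 and 10.06 in control rats, a difference of 0.25 (SE 0.12). Hsd17b10, a dehydrogenase of isoleucine and short branched chains, differed by 0.29 (SE 0.12). Hadh, the matrix enzyme for short and medium hydroxyacyl chains, was higher by 0.15 (SE 0.12). Decr1, the dienoyl-CoA reductase for polyunsaturated chains, differed by 0.20 (SE 0.16), or 0.06 without compound 177 replicate 1, and Acads, for short chains, by 0.06 (SE 0.16). The subunits of the electron transfer flavoprotein differed by 0.13 (Etfa, SE 0.10) and 0.26 (Etfb, SE 0.17). Among the thioesterases and genes of malonyl-CoA control 4 of 5 were above control, with Acot2 at 0.31 (SE 0.22) and Acot13 at 0.22 (SE 0.21). With 1 array left out Acot2 ran from 0.18 to 0.53, and Acot13 was 0.06 without compound 177 replicate 2. Acot2 was dim, at 6.46 with compound 177 and 6.15 in control, and differed by 0.17 without background correction.

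Peroxisomal oxidation shortens very long and branched chains in a separate organelle. Here 5 of 10 genes were above control, near the 53.4% of all tested probes, with a median of 0.02. Decr2 differed by 0.26 (SE 0.16) and Acox2 by 0.34 (SE 0.24), or by 0.15 and 0.18 without background correction. Acox2 was dim, at 5.90 with compound 177 and 5.56 in control, and was detected on 6 of the 8 arrays. Among PPAR-responsive genes of muscle 2 of 13 were above control and 11 below, with a median of -0.07. Fabp3, the cytosolic fatty acid binding protein of muscle, was higher by 0.28 (SE 0.22). Angptl4, an inhibitor of lipoprotein lipase, differed by -0.62 (SE 0.36), Pdk4, the kinase that holds back pyruvate dehydrogenase, by -0.19 (SE 0.17), and Ucp3, a mitochondrial carrier, by -0.05 (SE 0.32). In set 1 this list had a median of -0.21, with 3 of 13 genes above control. In set 2 the median was 0.08, with 7 of 13 above, so its direction was not the same in the sets. The list leaves out the 10 genes themselves, although transcription of many genes of the pathway responds to PPAR receptors. Of the regulators 8 of 14 were above control (median 0.04), near the 53.4% of all tested probes. This list of mostly transcriptional regulators also holds the deacetylase Sirt3 and the kinase subunit Prkaa2. Ppara, Ppard and the coactivator Ppargc1a, which are known to regulate genes of fatty acid oxidation, differed by 0.24 (SE 0.19), 0.03 (SE 0.22) and 0.23 (SE 0.24), and Ppargc1a by 0.76 in set 1 and -0.29 in set 2. Without control replicate 2 Ppargc1a differed by 0.01, and without compound 177 replicate 2 Ppara differed by 0.09. Ppara and Ppard were dim, detected on 7 and 6 of the 8 arrays. Without background correction Ppara differed by 0.12 and Ppargc1a by 0.16. Perm1, a muscle regulator of oxidative genes, differed by 0.37 (SE 0.21), with 0.89 and -0.15 in these sets. Ncor1, a corepressor of nuclear receptors, was the 1 of the 14 whose groups were separate (0.705% of all probes lay wholly below control), at 8.72, 8.35, 8.81 and 8.59, against 9.01, 9.14, 8.99 and 9.15 in control rats, a difference of -0.45 (SE 0.12) with a limma adjusted p = 0.9999.

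**Figure D4:**
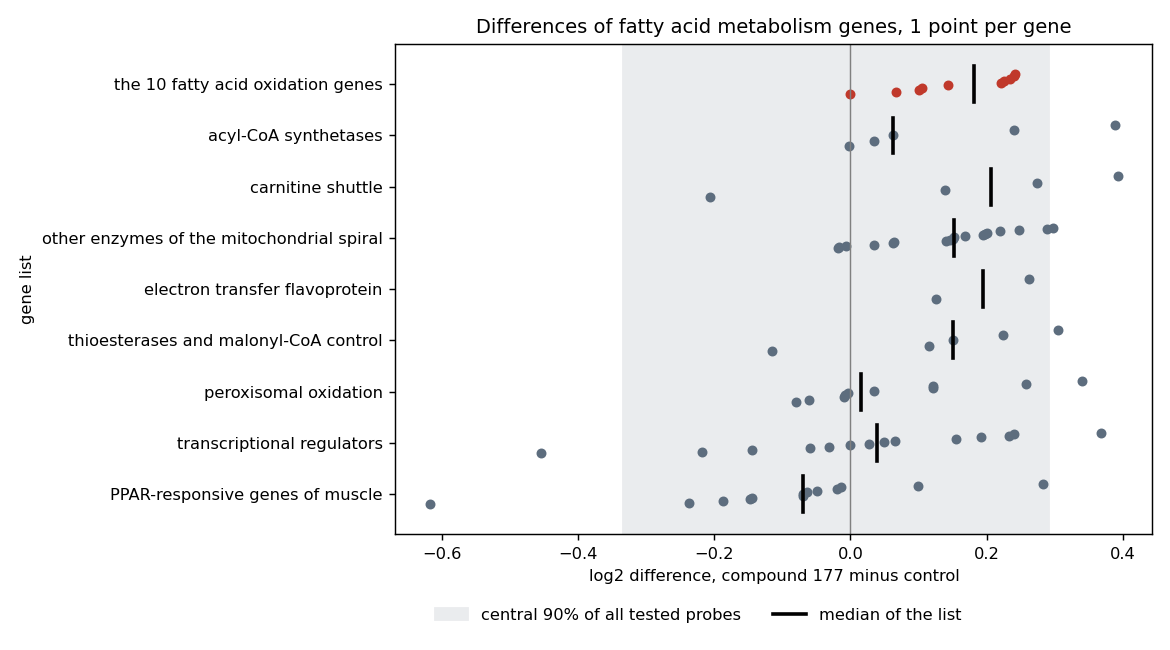
Differences (compound 177 minus control, log2 scale) of the 10 genes and of 8 lists of fatty acid metabolism, 1 point per gene, with the median of each list as a bar and the central 90% of all tested probes, -0.33 to 0.29, shaded. The 10 genes lie between -0.0002 and 0.24, all inside the shaded range, and the medians run from -0.07 for PPAR-responsive genes to 0.21 for carnitine transport.

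Markers of fibre types and other cell types averaged mostly below control, where 46.6% of all tested probes did, and 0 of them passed the test. Slow-fibre markers, which include Myh7, the slow myosin heavy chain, were below control in 10 of 11, with a median of -1.03 (-0.19 in set 1 and -2.01 in set 2). A limma unadjusted p below 0.05 was reached by 3 of them and by 3.88% of all tested probes. Both measured liver markers were below control (median -0.82), with the 2 arrays numbered 2 the highest of their groups. Of 9 fibroblast and matrix markers 9 averaged below control (median -0.64), as did 5 of 5 measured macrophage markers (median -0.58) and 3 of 3 endothelial ones (median -0.14). The matrix mean ran from -1.13 to 0.54 in compound 177 rats and from -0.20 to 0.65 in control rats. Adipocyte markers were above control in 2 of 7 (median -0.25), and fast-fibre markers in 1 of 8 (median -0.06). A limma unadjusted p below 0.05 was also reached by 1 of 7 adipocyte, 1 of 9 matrix and 1 of 3 endothelial markers. The adipocyte one, Fabp4, was higher by 0.25 (SE 0.10) with its groups separate, where 1.70% of all probes lay wholly above control. The 2 measured blood markers had a median of -0.09. The part of these markers in the values of the 10 genes was not tested.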

How the data were processed

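Per the labels' protocols, muscle was ground in liquid nitrogen, and column-purified, DNase-treated RNA was made into biotin-labelled cRNA. The authors deposited linear intensity values per probe and array without normalization between arrays, and beside each a detection p-value in steps of 1 in 825. A second table of intensity values that the authors normalized served as an alternative. Its sorted values are identical among replicates 1 and 2 of both groups (set 1) and among replicates 3 and 4 (set 2). The value table of the series equals it. The scanner software is not given in the sources used here.

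Intensities were corrected and quantile-normalized with neqc of limma 3.58.1 (R 4.3.3; background inferred from detection p, offset 16) and taken to log2. Probes with a detection p below 0.05 on at least 4 arrays were kept (10212 of 22523). The model (lmFit, then eBayes, in limma) held the group alone, and p-values were adjusted by Benjamini-Hochberg across every tested probe. The method was tested on simulated data with planted differences larger than those of the 10 genes and with errors independent between probes. That test therefore does not cover differences of the size seen here or genes that vary together. The 4 arrays per group limit precision, with a median standard error of 0.16 over tested probes. Gene symbols came from the platform annotation (13793 probes with 1 symbol) and matched GRCr8 by gene identifier for all 10 genes. A gene with several probes took the tested one with the highest mean.

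The 10 genes, lists and alternatives were chosen with earlier results of these data known. Named genes are the 10, the 2 with the smallest p of each list, a fixed set of regulators and enzymes, the 5 most alike in profile, and markers. Alternatives were other background corrections and scaling, the authors' normalized values, other filters, array weights, blocks, single sets and leaving out arrays. The replicate numbers were checked for pairing: deviations of control and compound 177 arrays of number 1, 2, 3 and 4 correlated at 0.24, 0.47, 0.12 and 0.43. For number 3 neither array correlated best with its own number. All 4 values exceed 0.1, so an alternative model took the number as a block, from the data alone. The main model held the group alone and did not pair the arrays. Same-numbered arrays also share a normalization set, and those numbered 2 share liver transcripts. These correlations therefore do not settle whether the numbers mark pairs. The labels do not say outright that each array is 1 animal; the design text gives 4 rats per group.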

Additional observations from a re-analysis of the deposited data

Results flagged for a closer look

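In 5 of 80 groups of 4 arrays, over 40 named genes, 1 rat lay far from the other 3 by Dixon's criterion, which chance meets in about 1 of 20 groups. Acadvl was at 12.38 in compound 177 replicate 4, against 11.91 to 11.97 in the other treated rats; its difference with and without this rat is given above. Hadh was at 11.02 in the same rat, above the 10.74 to 10.76 of the others. Hsd17b10 was at 10.56 in compound 177 replicate 3, below the others at 10.86 to 10.89. In compound 177 replicate 1, Decr1 was at 11.83, against 11.26 to 11.29 in the other treated rats, and Angptl4 at 7.71, against 6.64 to 6.77. Without that rat the difference of Decr1 was 0.06. All 5 lie in the treated group.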

How the results depend on the processing

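Over 21 settings (19 planned and 2 added after seeing the data), the differences of the 9 genes other than Hadhb stayed above 0 in 189 of 189 values, from 0.002 to 0.39, and 0 of the 10 genes passed the test under any of them. The blocks and the other filters cannot move a difference, and they returned the main values. Every other setting reused the same rats, so the 189 values are not independent. The median difference kept its sign in all settings. It ran from 0.13 to 0.25 with 1 array left out at a time, and was 0.22 with median scaling and 0.17 with the authors' normalized values. An unadjusted p below 0.05 was reached by 3 of the 10 genes without background correction, by 4 without a filter on dim probes and by 1 each with the authors' normalized values, without compound 177 replicate 3 and without compound 177 replicate 4, and by 4 without control replicate 4. The smallest adjusted p of the 10 genes was 0.745, shared by 5 of them (Cpt2, Acadvl, Etfdh, Acaa2 and Eci1) with the replicate block, which changed no call. With 1 array left out, 6 of the 10 genes (all but Cpt2, Etfdh, Acaa2 and Eci1) moved over 1.5 times or turned. So did 20 of 25 named list genes. Hadhb differed by 0.10 with median scaling, by 0.0374 within set 1 and by 0.00164 with array weights, and by -0.0462 to 0.0706 with 1 array left out. Ppard differed by -0.000287 with median scaling, -0.0477 within set 1 and -0.0713 without both arrays numbered 2, and by -0.11 to 0.19 with 1 array left out. Acads differed by -0.0237 within set 1 and by -0.0170 to 0.18 with 1 array left out. Ucp3 differed by 0.33 within set 2, 0.0422 with array weights, 0.0426 without both arrays numbered 2 and 0.11 without both numbered 1, and by -0.29 to 0.21 with 1 array left out. Within set 2 Perm1 differed by -0.15 and Ppargc1a by -0.29. Over all probes, 0 were called in every planned setting and 6 without both arrays numbered 1, where 349 had an unadjusted p below 0.05. The cause was not tested. Each of the 10 genes had 1 probe, so no other probe could be tried. With 4 rats per group, differences of the size seen here lie within the error of single genes.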

Other observations

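The liver transcripts on the arrays numbered 2 were not limited to Alb. Ttr, encoding transthyretin, was at 7.20 in compound 177 replicate 2 and 9.16 in control replicate 2, and at 4.88 to 5.55 on the other 6 arrays. Fgb, a fibrinogen chain made by hepatocytes, was at 7.44 and 9.58 on these arrays and at 4.89 to 5.26 on the others, and Serpina1 at 8.54 and 10.40 against 5.21 to 5.67. All 5 liver marker probes, 2 of them for Alb, were detected on both arrays, and 0 to 3 on each of the others. Their maximum intensities, 43195 and 42838, were the lowest of the 8 arrays, and so were their counts of detected probes, 9261 and 9634. The alternative with array weights gave these arrays the lowest weights, 0.54 and 0.57. Their median intensities were not the lowest.

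Cpt1b and Cpt1a, the muscle and liver isoforms of carnitine palmitoyltransferase 1, differed from control in opposite directions, a pair picked after its values were seen. The log2 ratio of their probes within each array, which serves only to compare rats, was 2.06, 2.53, 2.18 and 2.26 in compound 177 rats, against 1.86, 1.74, 1.82 and 2.22 in control rats. The mean ratio was 0.35 higher with compound 177, no test was made, and control replicate 4 lay inside the treated range. The highest treated and the lowest control ratio were both on the arrays numbered 2, which carry liver transcripts. Without compound 177 replicate 2 the difference of Cpt1a was -0.09. Over all arrays neither gene had a limma unadjusted p below 0.05.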
